A study of Mus musculus with 4 samples.

Results

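Gabrd, Gabra4 and Gabra5 encode the δ, α4 and α5 subunits of the GABA-A receptor, and they were examined in single-nucleus RNA counts of adult mouse cortex. The members were found by symbol and are 3 of the 32285 genes in the files, and 3 of the 19 GABA-A receptor subunit genes. C57BL/6J wild-type mice had received daily intraperitoneal saline or risperidone, an antipsychotic that blocks dopamine and serotonin receptors, at 4 mg/kg from postnatal day (PND) 22 for 21 days. They were examined at PND 90, after a drug-free washout. Right hemicortices of 5 male and 5 female mice were combined in 1 pool per condition, and the nuclei sorted by DAPI were loaded from each pool onto 2 Chromium lanes, named here saline lane 1 and 2 and risperidone lane 1 and 2. The lanes are technical runs of 1 pool, so animals cannot be told apart, no test between conditions was possible, and the intervals given are exact 95% intervals that cover counting error only.

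GABA-A receptors are chloride channels made of 5 subunits. Some receptors gather at inhibitory synapses, whereas δ-containing receptors, often paired with α4 in forebrain neurons, and many α5-containing receptors lie outside the synapse. There they respond to low ambient GABA and carry tonic inhibition, and δ-containing receptors are known for their sensitivity to neurosteroids. The α5 subunit is best known from hippocampal pyramidal cells, and in the neocortex it is found mainly in deep layers.

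All 3 genes lie on the minus strand of GRCm38, with positions from GENCODE vM21. Gabrd (ENSMUSG00000029054) lies at chr4:155384980-155398112 and spans 13.1 kb, Gabra4 (ENSMUSG00000029211) at chr5:71569749-71658308 and spans 88.6 kb, and Gabra5 (ENSMUSG00000055078) at chr7:57407672-57510059 and spans 102 kb. No annotated gene overlaps Gabrd, while Gabra4 overlaps Gabrb1 on the opposite strand and Gabra5 overlaps Gm9962 on the opposite strand. The sequences shown are the coding stretch of the cysteine loop, the 2 cysteine codons and the 13 codons between them that give this receptor family its name. They are shown because they place the 3 members within 1 family and show how far δ stands from the α subunits. Each lies within 1 exon, which is exon 5 of 9 in Gabrd (chr4:155387877-155387921), exon 5 of 9 in Gabra4 (chr5:71640847-71640891) and exon 6 of 10 in Gabra5 (chr7:57452964-57453008), in the longest annotated coding transcript. They are written 5′ to 3′ on the coding strand with the cysteine codons in capitals.
Gabrd: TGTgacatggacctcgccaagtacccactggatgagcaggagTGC
Gabra4: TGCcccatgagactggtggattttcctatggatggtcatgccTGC
Gabra5: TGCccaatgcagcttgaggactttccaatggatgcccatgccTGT
The stretches of Gabra4 and Gabra5 shared 34 of 45 bases, and that of Gabrd shared 25 of 45 bases with each of them. These are the reference sequence and not reads of these mice.

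The lanes held between 119736937 and 203675013 UMIs (unique molecular identifiers, 1 per counted RNA molecule), and the median nucleus of the risperidone lanes held more UMIs than that of the saline lanes. The shallowest nucleus listed held 1364 and 1630 UMIs in the saline lanes but 500 in each risperidone lane. Classes were set by marker UMIs, and 50.7% to 52.6% of the saline nuclei and 34.4% to 36.3% of the risperidone nuclei looked like mixtures of 2 classes and were left out. The 16 classes compared are written with the name of the cells whose markers they carry, and each is to be read as that type-like. They comprise 9 glutamatergic layer types, with intratelencephalic (IT), extratelencephalic (ET), near-projecting (NP), corticothalamic (CT), L6b and claustrum types, 3 interneuron classes (PV-IN, Sst-IN and Lamp5-IN), striatal spiny projection neurons (SPN), astrocytes, oligodendrocytes and oligodendrocyte precursors (OPC). Markers kept out of that step were used to check the names, and each list was highest in the nuclei of its name, with an exception for the GABAergic list given below. The held-out GABAergic list lay between 6285 and 18200 CPM (UMIs of a gene or list scaled to 1e6 UMIs) in the interneuron classes and between 108 and 1113 CPM in the layer types, and the held-out striatal list between 415 and 584 CPM in SPN nuclei and under 22.2 CPM in every layer type. OPC nuclei held 6294 to 7016 CPM of the GABAergic list, within the range of interneurons and above Sst-IN nuclei in every lane but saline lane 2. Oligodendrocytes held 2508 to 3522 CPM of it, above every layer type. The source of the GABAergic list in these glia was not tested. Glial nuclei carried RNA of the held-out glutamatergic list, at 362 to 1498 CPM against 2731 to 3691 CPM in the layer types. SPN nuclei held 1334 to 1548 CPM of this list. SPNs are cells of the striatum, a region next to the cortex, and they were present in both pools.

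Gabrd was highest in PV-IN nuclei, at 59.1 to 97.3 CPM over the 4 lanes (mean 76.2 CPM), and in SPN nuclei, at 51.1 to 104 CPM (mean 72.7 CPM). These classes did not differ beyond the spread of their lanes, and both lay above L2/3 IT in every lane. L2/3 IT was the highest layer type, with a mean of 39.1 CPM, followed without a gap by Lamp5-IN (35.8 CPM) and L4/5 IT (29.6 CPM). Deep layer types were lower, with means of 19.9 CPM in L6b, 18.7 CPM in NP, 17.5 CPM in L5 ET, 14.9 CPM in L6 IT, 13.9 CPM in L5 IT and 13.1 CPM in L6 CT. Claustrum nuclei held 22.2 CPM and Sst-IN nuclei 16.4 CPM, so PV-IN nuclei held the δ transcript at a level above Sst-IN nuclei in all 4 lanes. From claustrum downward each class overlapped its neighbour in the order. Vascular and microglial nuclei, which should lack the gene, gave 2 and 0 UMIs after saline and 12 and 6 UMIs after risperidone. These are 7.93, 0, 20.4 and 12.5 CPM, and the 0 allows up to 11.9 CPM, counted as 3 UMIs. Of the 12 UMIs, 9 came from 53 microglial nuclei, so the comparison level rests on few nuclei. In risperidone lane 1 the levels of L5 IT, L6 IT, L5 ET, NP, L6 CT, L6b, claustrum and Sst-IN nuclei, at 8.35 to 17.3 CPM, lay under the 20.4 CPM of that comparison, and in risperidone lane 2 those of L5 IT, L6 CT and L6b lay under its 12.5 CPM. In both saline lanes every class of neurons that was compared lay above it.

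Gabra4 was highest in SPN nuclei, which held 270.1 to 339.9 CPM (mean 303 CPM), above every other class in every lane. Lamp5-IN (217 CPM), L2/3 IT (199 CPM), L4/5 IT (187 CPM) and PV-IN (173 CPM) followed, with overlapping lanes between neighbours. IT and CT types of the deep layers lay between 138 CPM in L6 CT and 155 CPM in L6 IT, and L5 ET, L6b and Sst-IN were the lowest neuronal classes at 92.3, 91.1 and 69.5 CPM. Vascular and microglial nuclei held 67.2 to 93.6 CPM, which spans the means of these 3 classes.

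Gabra5 followed the deep layers. L6b nuclei held 116 to 141 CPM (mean 127 CPM), Lamp5-IN nuclei 105 CPM, L5 ET 84.7 CPM, L6 CT 71.3 CPM, L5 IT 64.1 CPM, NP 63.0 CPM and L6 IT 55.3 CPM. Upper layers held less, with 27.9 CPM in L2/3 IT and 22.3 CPM in L4/5 IT, and L6b exceeded L2/3 IT in all 4 lanes. PV-IN (19.2 CPM) and Sst-IN (7.44 to 17.0 CPM) were the lowest neuronal classes, the opposite end from where PV-IN stood for Gabrd. Among interneurons only the Lamp5 class, which holds neurogliaform cells, stood with the deep layers for this gene. Vascular and microglial nuclei, which should lack the gene, held 47.6 and 31.6 CPM after saline and 34.1 and 8.34 CPM after risperidone. The levels in upper layers, PV-IN and Sst-IN nuclei lay under this in every lane but risperidone lane 2, where they lay above it. Claustrum and SPN nuclei followed the same order, except that claustrum in saline lane 2 (46.2 CPM) and SPN nuclei in risperidone lane 1 (40.9 CPM) also lay above it.

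**Figure D1:**
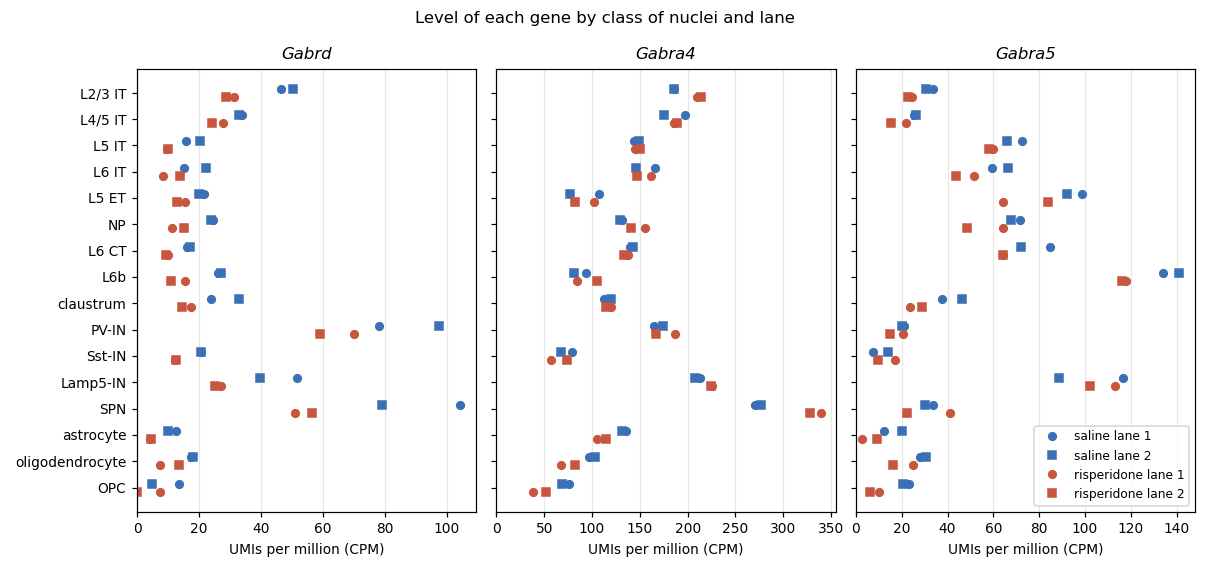
Level in CPM (x axis, linear from 0) of each gene in the 16 classes of nuclei (y axis), with 1 point per lane (circles lane 1, squares lane 2, blue saline, red risperidone). Gabrd peaks in PV-IN and SPN nuclei, Gabra4 in SPN nuclei at a mean of 303 CPM, and Gabra5 in L6b nuclei at a mean of 127 CPM.

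Most UMIs in nuclei come from introns, so levels were compared between genes per kilobase of gene span. On this scale Gabrd held 2.97 CPM per kb in L2/3 IT, against 2.24 for Gabra4 and 0.273 for Gabra5. In PV-IN nuclei the values were 5.80, 1.96 and 0.187 CPM per kb, and in SPN nuclei 5.54, 3.43 and 0.310 CPM per kb. In L2/3 IT Gabrd lay above Gabra4 in both saline lanes, with 3.52 and 3.82 against 2.10 and 2.09 CPM per kb, whereas in the risperidone lanes they overlapped, with 2.37 and 2.18 for Gabrd and 2.37 and 2.41 for Gabra4. In L6b nuclei the means lay nearer to each other, with 1.52 CPM per kb for Gabrd, 1.24 for Gabra5 and 1.03 for Gabra4. There too the risperidone lanes overlapped, with 1.18 and 0.83 CPM per kb for Gabrd, 1.15 and 1.14 for Gabra5 and 0.95 and 1.19 for Gabra4. The members together took 5.26% to 5.46% of all GABA-A receptor UMIs in glutamatergic nuclei, 3.76% to 4.23% in interneuron nuclei and 7.03% to 8.73% in SPN nuclei.

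Patterns over the 18 classes with at least 200 nuclei were compared by Pearson correlation of log2(CPM + 1), given as a description over points that share lanes and depth. Gabrd and Gabra4 correlated at r = 0.77, while Gabra5 correlated with Gabrd at r = 0.13 and with Gabra4 at r = 0.23. The 5 genes most like Gabrd were Dym (r = 0.84), Kcnip2 (0.79), Cyp46a1 (0.79), Ndrg4 (0.79) and Elmod1 (0.78). Those most like Gabra4 included Cfap74 (0.87), Mir670hg (0.85), Kcnj4 (0.85) and Cdk5r1 (0.84), and these 4 were highest in SPN nuclei. Gabra5 was most like Sez6 (0.77), Sdk2 (0.77), Skap1 (0.77), A830018L16Rik (0.75) and Chsy3 (0.75).

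The comparison of the pools asks whether these transcripts differed in adult cortex after risperidone in adolescence. UMIs were summed per class and pool, scaled by TMM factors, and called when the log2 ratio of risperidone to saline was at least 0.5 in size, the mean was at least 10 CPM, and the lanes of the pools did not overlap. No member was called higher in any class, against 9.14% of all measured pairs of gene and class, and 9.55% of these pairs were called lower. Fewer cells of a type and less RNA per cell cannot be told apart in the sums over all nuclei, and the layer types differed in share between the pools. L2/3 IT made up 28.4% and 29.2% of typed glutamatergic nuclei after saline and 36.1% and 35.0% after risperidone, while NP made up 13.5% and 12.5% against 6.11% and 6.57%. The classes themselves were therefore compared.

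Gabrd was lower in the risperidone pool in 13 of the 14 classes where it was measured. In all 13 neuronal classes both risperidone lanes lay under both saline lanes and the interval lay under 0, with a median log2 ratio of -0.83. Such an order of lanes is common without the minimum of size. It held for 23.5% of measured genes in L6b, the lowest share of these classes, to 40.1% in L2/3 IT, the highest. In all glutamatergic nuclei summed the lanes stood at 30.0 and 31.1 scaled CPM after saline and at 20.4 and 19.1 scaled CPM after risperidone. The groups did not overlap, and the log2 ratio was -0.64 (interval -0.71 to -0.57), in a class where 6.01% of measured genes were called lower. With the 9 layer types weighted equally the value was -0.82. In L2/3 IT the lanes stood at 47.1 and 51.3 against 30.5 and 28.1 scaled CPM, a log2 ratio of -0.77 (-0.89 to -0.64), with 7.06% of genes called lower. L5 IT nuclei held 16.1 and 20.8 against 9.57 and 9.71 scaled CPM, a log2 ratio of -0.98 (-1.33 to -0.63), beside 6.3% of genes.

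The other layer types moved the same way. The log2 ratio was -0.84 in L6 CT (interval -1.12 to -0.56, beside 6.55% of genes called lower), -0.83 in L6 IT (-1.57 to -0.10, beside 8.13%) and -0.60 in L5 ET (-1.02 to -0.17, beside 9.07%). The L6 IT call ends without saline lane 2 (-0.50) and with RNA of other cells taken out (-0.79), and the L5 ET call without risperidone lane 2 (-0.46) and in male nuclei (-0.50). The ratio was -0.92 in NP (-1.36 to -0.50, beside 8.49%), -1.06 in L6b (-2.06 to -0.07, beside 12.8%, on 19 UMIs per pool) and -0.93 in claustrum (-1.46 to -0.42, beside 8.58%). The L6b call ends in male nuclei (-0.47, on 2 UMIs per pool). Claustrum nuclei also differed in sex, with 46.6% and 41.0% male among those whose sex could be called after saline against 18.6% and 13.7% after risperidone. The Gabrd log2 ratio in claustrum was -1.01 in female nuclei and -0.69 in male nuclei, the latter not called. L4/5 IT was the exception to the rule of size, with 34.0 and 33.4 against 27.4 and 23.8 scaled CPM and a log2 ratio of -0.42 (-0.70 to -0.13), where 5.62% of genes were called lower.

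Among GABAergic nuclei the δ transcript was lower as well. All interneurons summed held 43.3 and 47.2 scaled CPM after saline and 29.3 and 27.2 after risperidone, a log2 ratio of -0.70 (-0.89 to -0.50, beside 5.28% of genes called lower). PV-IN nuclei, with the highest level, held 79.5 and 100 against 68.3 and 57.8 scaled CPM, and the log2 ratio was -0.56 (-0.80 to -0.31, beside 8.27%). This PV-IN call ends under plain CPM (-0.48), without saline lane 2 (-0.36) and without risperidone lane 2 (-0.41). The ratio was -0.77 in Sst-IN (-1.37 to -0.17, beside 7.37%) and -0.85 in Lamp5-IN (-1.32 to -0.39, beside 8.59%). Neither was called in male nuclei, where Sst-IN gave -1.25 on 2 and 11 UMIs after saline and 3 and 6 after risperidone, and Lamp5-IN gave -0.45. SPN nuclei held 105 and 79.5 against 50.5 and 56.7 scaled CPM, a log2 ratio of -0.75 (-1.04 to -0.45, beside 10% of genes). The sex of the SPN nuclei differed between the pools, with 62.8% and 53.2% male among nuclei whose sex could be called after saline against 1.66% and 5.79% after risperidone. Within female SPN nuclei alone the Gabrd log2 ratio was -0.71.

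In glia few Gabrd UMIs were counted. The median oligodendrocyte held 1770.5 and 2329.5 UMIs after saline but 1095 and 1420 after risperidone, the reverse of the order over all nuclei. Medians of astrocytes and OPCs overlapped between the pools. Astrocytes held 56 UMIs after saline and 18 after risperidone, OPCs 16 and 6, both under the minimum level, and oligodendrocytes 37 and 22 UMIs with a log2 ratio of -0.78 (-1.61 to 0.02), where 19.4% of all genes were called lower. RNA of other cells, estimated from the held-out markers, made up 33.1% to 52.8% of glial UMIs after saline and 14.5% to 36.6% after risperidone, and it would by itself give 0.90 of the Gabrd UMIs counted in saline astrocytes and 0.69 of those in risperidone astrocytes. With that RNA taken out, the ratio in oligodendrocytes had the opposite sign, at 0.38, on few UMIs. That RNA would give 12.55 and 19.1 of the 15 and 22 UMIs after saline, and 4.98 and 7.13 of the 6 and 16 after risperidone. For the 3 members and 3 glial classes the ratio of expected to counted UMIs was under 0.5 only for Gabra4 in astrocytes, at 0.37 and 0.23. With RNA of other cells taken out the Gabrd ratio in astrocytes was -0.12 in place of -1.43. This too rests on few UMIs, since that RNA would give 22.7 and 27.8 of 28 and 28 UMIs after saline and 5.6 and 6.8 of 8 and 10 after risperidone. The oligodendrocyte call also ends with stricter classes (-0.33), without risperidone lane 1 (-0.49) and in male nuclei.

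Gabra5 was lower in all glutamatergic nuclei summed, with 60.9 and 60.1 scaled CPM after saline and 41.6 and 41.7 after risperidone. The groups did not overlap, as was so in this direction for 44% of measured genes. The log2 ratio was -0.54 (-0.59 to -0.49), beside 6.01% of genes called lower. Equal weight for the layer types gave -0.44, under the threshold of size. The call also ends under plain CPM and with ratios centred on genes of like span. In each of the 9 layer types both risperidone lanes lay under both saline lanes, and the interval lay under 0 in 8 of them, L6b being the exception. Without the minimum of size, 23.5% (L6b) to 40.1% (L2/3 IT) of measured genes had their lanes in this order. Only L4/5 IT (-0.58, -0.92 to -0.25, beside 5.62% of genes called lower) and claustrum (-0.73, -1.14 to -0.32, beside 8.58%) met the rule of size. The L4/5 IT call rests on risperidone lane 2, since without it the ratio was -0.27, and it also ends with RNA of other cells taken out (-0.44) and in male nuclei (-0.39). The claustrum call ends in male nuclei (-0.43). In L2/3 IT the lanes stood at 34.4 and 31.3 against 23.8 and 22.5 scaled CPM, and the log2 ratio of -0.50 (-0.64 to -0.35) fell just short of the threshold. The deep types with the most Gabra5 had smaller ratios in size, but each interval overlapped those of L2/3 IT and L4/5 IT. The ratios were -0.28 in L6b (-0.64 to 0.10), -0.33 in L6 CT (-0.44 to -0.21), -0.28 in L5 IT (-0.44 to -0.12), -0.40 in L5 ET (-0.59 to -0.21), -0.41 in NP (-0.64 to -0.19) and -0.47 in L6 IT (-0.84 to -0.10). RNA of other cells would give 0.26 of the Gabra5 UMIs after saline and 0.12 after risperidone in L2/3 IT. These parts were 0.26 and 0.17 in NP and 0.07 and 0.03 in L6b, and their bearing on this order was not tested.

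Lamp5-IN nuclei, the interneurons with the most Gabra5, held 120 and 90.1 scaled CPM after saline and 110 and 101 after risperidone. These lanes overlapped, and the log2 ratio was 0.02 with an interval of -0.25 to 0.29, which does not reach the size of the glutamatergic ratio. PV-IN (-0.34, -0.84 to 0.16), Sst-IN (0.13, -0.57 to 0.85) and SPN nuclei (-0.08, -0.51 to 0.35) held 28 to 120 UMIs per pool, and their intervals hold 0. Within female SPN nuclei alone the Gabra5 log2 ratio was -0.52. In astrocytes (83 and 26 UMIs, log2 ratio -1.47), OPCs (40 and 14 UMIs, -1.49) and oligodendrocytes (61 and 39 UMIs, -0.67) Gabra5 met the rule of size, where 13.8%, 10.9% and 19.4% of all genes were called lower. RNA of other cells would by itself give 1.08 of the UMIs counted in saline astrocytes and 1.02 of those in risperidone astrocytes, and over 1 in both pools in OPCs. With it taken out the astrocyte ratio was -0.16 and the oligodendrocyte ratio 0.97, neither called. Both rest on few UMIs. In astrocytes of saline lane 1 and risperidone lane 1 it would give 40.2 and 11.9 UMIs where 27 and 5 were counted. In oligodendrocytes it would give 22.2 and 34.1 of the 24 and 37 UMIs after saline, and 10.5 and 15.4 of the 20 and 19 after risperidone. Claustrum again differed in the sex of its nuclei, as given above.

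Gabra4, the member with the most UMIs, did not share this direction. Glutamatergic nuclei held 159 and 160 scaled CPM after saline and 167 and 170 after risperidone, a log2 ratio of 0.08 (0.06 to 0.11). With equal weights for the layer types the value was 0.00, and over the single layer types it ranged from -0.12 in L6 CT (-0.20 to -0.03) to 0.13 in L2/3 IT (0.08 to 0.19). No layer type was called. Nuclei of 1 sex alone differed from this in some types, with Gabra4 log2 ratios of 0.42 in female and -1.34 in male claustrum nuclei, of 0.49 and -0.63 in L6 IT and of -0.11 and -0.89 in L6b, and the male values met the rule of size. The male claustrum value rests on 38 and 62 UMIs after saline and 14 and 11 after risperidone. The male L6b value rests on only 8 and 8 UMIs after saline and 9 and 3 after risperidone. The male share of nuclei whose sex could be called was lower in both risperidone lanes than in both saline lanes in most classes. Its lanes overlapped in L5 IT, NP, PV-IN, Sst-IN and Lamp5-IN nuclei. In all glutamatergic nuclei the share was 35.6% and 35.2% after saline against 30.2% and 31.3% after risperidone. It was 43.7% and 42.7% after saline against 30% and 27.7% after risperidone in L6 IT, and 28.6% and 29.0% against 15.9% and 18.2% in L6b. PV-IN (-0.03, -0.19 to 0.13), Sst-IN (-0.16, -0.44 to 0.12) and Lamp5-IN nuclei (0.04, -0.15 to 0.22) had intervals that hold 0. SPN nuclei held 271 and 277 against 336 and 329 scaled CPM, a log2 ratio of 0.27 (0.14 to 0.41), and 0.33 within female nuclei. Male SPN nuclei gave -1.37, on only 2 and 10 UMIs in the risperidone lanes. In all and in female SPN nuclei Gabrd had the opposite sign, whereas in male SPN nuclei it had the same one, at -1.36, on only 1 and 3 UMIs in the risperidone lanes. The only class called was OPC, with 132 and 80 UMIs and a log2 ratio of -0.70 (-1.12 to -0.29), where RNA of other cells would give 1.01 and 1.30 of the UMIs counted.

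**Figure D2:**
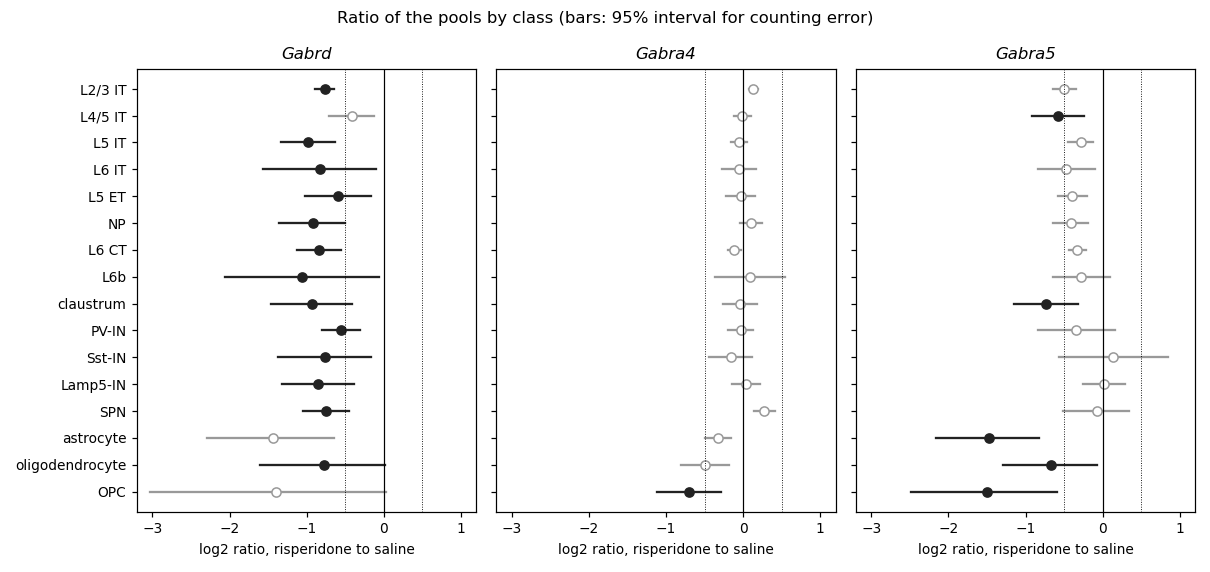
Log2 ratio of risperidone to saline (x axis) of each gene in the 16 classes (y axis), with points for the ratio of the summed and scaled UMIs and bars for the exact 95% interval, which covers counting error only. Filled points met the rule of size, open points did not, and dotted lines mark a log2 ratio of 0.5 in either direction. All 16 Gabrd points lie under 0, whereas those of Gabra4 in neurons lie between -0.16 and 0.27.

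The share of nuclei with a UMI depends on depth, so each nucleus was thinned to 2000 UMIs and shallower nuclei were left out. These were 1222 and 548 glutamatergic nuclei after saline and 114 and 64 after risperidone, and 77 and 18 SPN nuclei against 3 and 0. After thinning, 8.92% and 9.48% of L2/3 IT nuclei held Gabrd after saline and 5.94% and 5.64% after risperidone. In PV-IN nuclei the shares were 15.3% and 16.3% against 12.4% and 10.7%, and in SPN nuclei 18.9% and 14.4% against 9.76% and 10.2%. Without thinning the shares in L2/3 IT were 20.7% and 24.6% against 19.6% and 23.4%, and the lanes overlapped. In PV-IN nuclei they were then 23.6% and 32.3% against 27.7% and 34.0%, overlapping and with the difference in the other direction. The median L2/3 IT nucleus held 4937 and 5920 UMIs after saline and 6980 and 9515 UMIs after risperidone. In vascular and microglial nuclei 0% to 3.86% of nuclei held a Gabrd UMI before thinning, at medians of 1685 and 2199.5 UMIs after saline and 899 and 1153 after risperidone. The 0 of 106 nuclei in saline lane 2 has a Clopper-Pearson upper bound of 3.42%. Gabra4 was found after thinning in 29.7% and 29.8% of L2/3 IT nuclei against 33.4% and 33.9%, and in 39.4% and 40.5% of SPN nuclei against 46.6% and 45.9%. Gabra5 was found in 6.13% and 5.94% of L2/3 IT nuclei against 4.44% and 4.15%, and in L6b, where it is highest, in 22.9% and 24.9% against 23.9% and 22.0%, where the lanes overlapped.

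**Figure D3:**
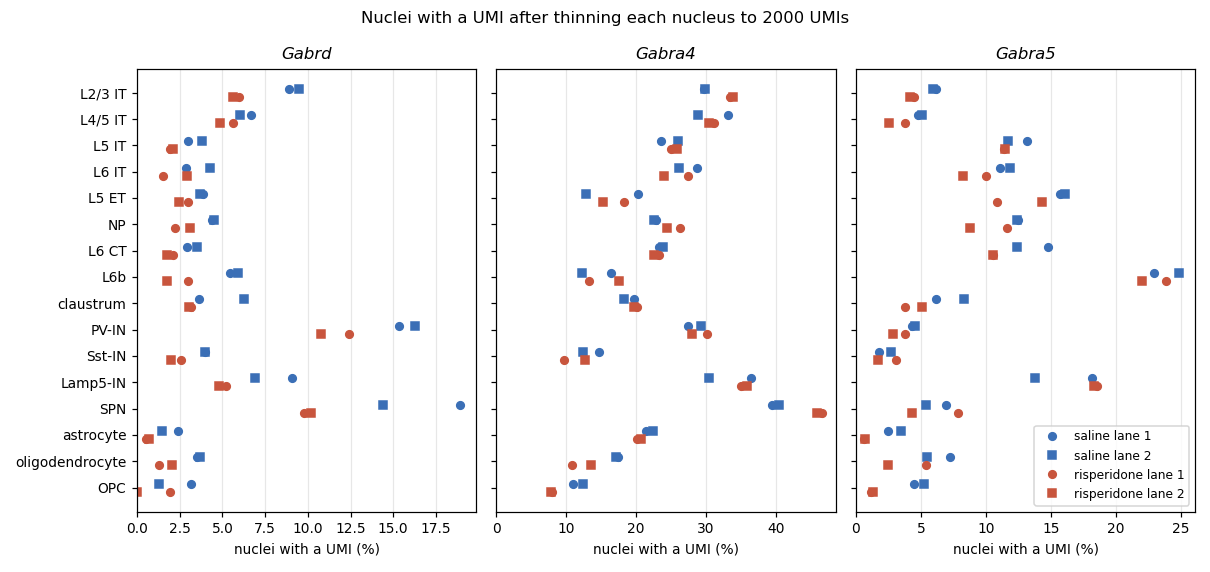
Share of nuclei with at least 1 UMI of each gene after thinning to 2000 UMIs per nucleus (x axis, percent), by class (y axis) and lane (circles lane 1, squares lane 2, blue saline, red risperidone). Gabrd shares of the risperidone lanes lie left of the saline lanes in L2/3 IT, PV-IN and SPN nuclei, and those of Gabra4 in SPN nuclei lie right of them.

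Nuclei with UMIs of 2 members were counted against the product of the single shares within 10 ranges of depth. In PV-IN nuclei 257 held both Gabrd and Gabra4 where the product gives 246, a ratio of 1.05 (0.92 to 1.18), and the ratio was 0.98 in SPN (0.87 to 1.11) and 1.04 in L2/3 IT nuclei (0.99 to 1.10). Over sums of classes that differ in level the interval of this pair lay over 1, with 1.05 (1.02 to 1.08) in glutamatergic and 1.22 (1.105 to 1.35) in interneuron nuclei. Over all glutamatergic nuclei Gabrd and Gabra5 were found together in 1256 nuclei where the product gives 1507, a ratio of 0.83 (0.79 to 0.88), and over all interneurons the ratio was 1.28 (1.06 to 1.53). Within L2/3 IT the ratio was 0.89 (0.79 to 1.00), within L6 CT 0.81 (0.66 to 0.99) and within L5 IT 1.12 (0.92 to 1.35). Lamp5-IN nuclei held both in 65 nuclei against 48.2, a ratio of 1.35 (1.04 to 1.72).

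Gene span moved with the ratios of all genes, so the members were set beside genes of like span in glutamatergic nuclei. The median log2 ratio was 0.08 for the 831 measured genes that span 10 to 20 kb, as Gabrd does, and 4.57% of these were called lower. It was 0.02 for genes of 50 to 100 kb, as Gabra4, -0.05 for genes of 100 to 200 kb, as Gabra5, and -0.15 for longer genes. Gabrd thus lay 0.71 under the median of genes of like span, Gabra5 lay 0.48 under its own, and Gabra4 lay 0.07 over its own.

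**Figure D4:**
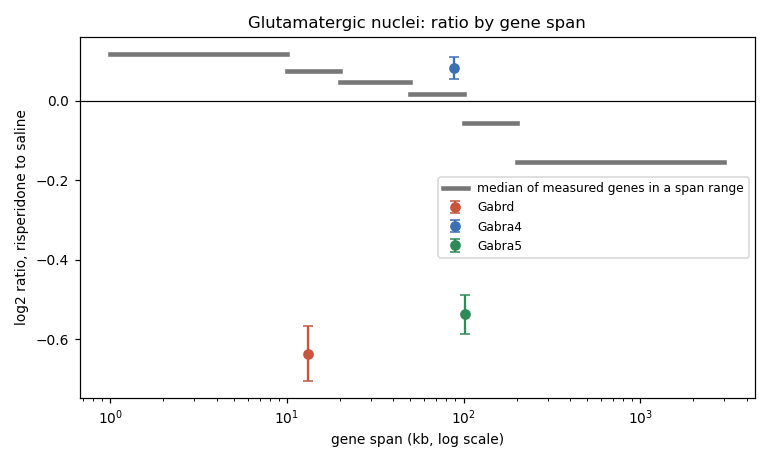
Log2 ratio of risperidone to saline in glutamatergic nuclei (y axis) against gene span (x axis, kb, log scale), with grey bars for the median of all measured genes in a range of span and points with exact 95% intervals for the 3 members. Gabrd, at -0.64, lies under a median of 0.08 for genes of like span.

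RNA of other cells made up an estimated 12.8% to 36.9% of UMIs in the layer types after saline and 5.85% to 23.6% after risperidone, and 11.6% to 25.7% against 8.29% to 28.6% in interneurons and SPN nuclei. It would give 0.0967 of the Gabrd UMIs counted in L2/3 IT after saline and 0.0454 after risperidone, 0.0459 and 0.0270 in PV-IN nuclei, and most among neurons in NP nuclei, with 0.43 and 0.32. For Gabra5 it would give 0.26 and 0.12 in L2/3 IT, 0.31 and 0.16 in L4/5 IT and 0.61 and 0.32 in Sst-IN nuclei. With this RNA taken out the log2 ratio in glutamatergic nuclei was -0.63 for Gabrd, -0.56 for Gabra5 and 0.08 for Gabra4.

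**Figure D5:**
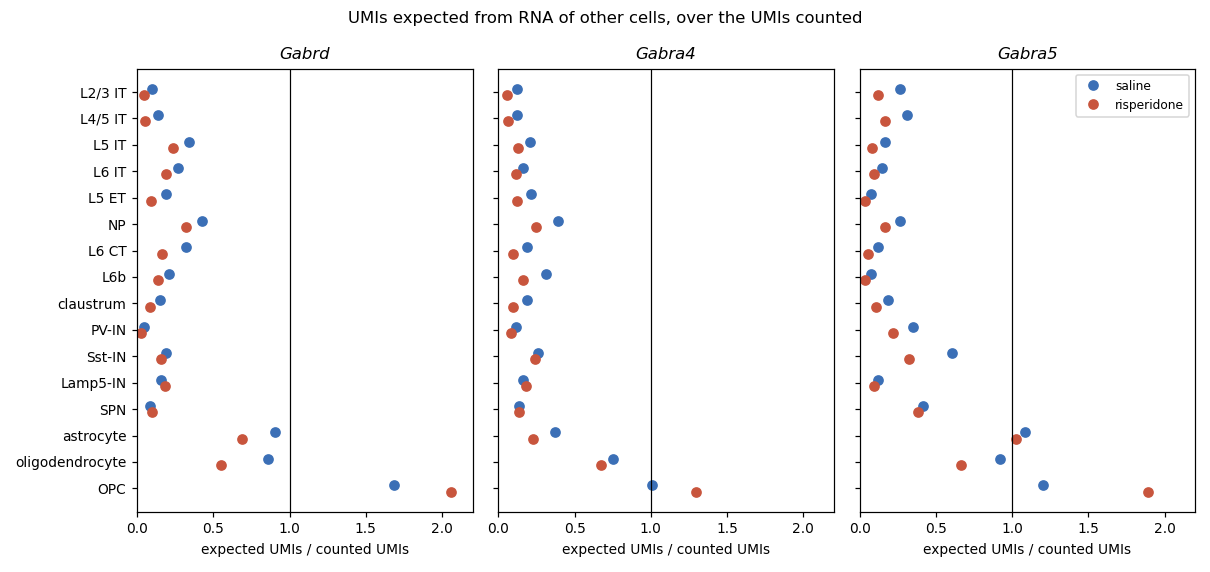
UMIs of each gene expected from RNA of other cells divided by the UMIs counted (x axis), by class (y axis) and pool (blue saline, red risperidone), with a line at 1 where all counted UMIs would be expected from other cells. Neuronal classes lie under 0.5 for Gabrd, at 0.0459 and 0.0270 in PV-IN nuclei, whereas OPC values of all 3 genes lie at or over 1.

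The pathway around the members was read from 50 genes, of which 26 besides the members were measured in glutamatergic nuclei. Of these, 6 were lower and 0 higher by the rule of size, beside 6.01% and 4.83% of all measured genes, and their median log2 ratio was -0.07 against 0.01 over all genes. The other receptor subunits did not meet the rule there. Gabra2 (0.11), Gabra3 (0.09), Gabrb2 (0.20), Gabrb1 (-0.21) and Gabrg3 (-0.22) were not called. In interneurons 3 of 28 measured genes were lower and 3 higher, beside 5.28% and 5.8% of all genes.

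Genes of synaptic anchoring were among those lower in glutamatergic nuclei. Nlgn2, the adhesion protein neuroligin 2 of inhibitory synapses, had a log2 ratio of -0.55 (-0.61 to -0.50) and was lower in 9 of the 13 neuronal classes. Lhfpl4, which links GABA-A receptors to neuroligin 2, had -0.51 (-0.56 to -0.46) and was lower in 7 neuronal classes, and Shisa7, an auxiliary receptor protein, had -0.50 (-0.55 to -0.46) and was lower in 3. Plcl1, a receptor-trafficking protein, had -0.36 (-0.38 to -0.34) in all glutamatergic nuclei and met the rule in 5 neuronal classes. It spans 348 kb, and genes over 200 kb had a median log2 ratio of -0.15 in glutamatergic nuclei, with 11.8% called lower. Abat, the enzyme that breaks GABA down, had -0.52 (-0.58 to -0.45), and Slc6a11, a GABA transporter mainly of astrocytes, -0.61 (-0.70 to -0.51). RNA of other cells made up 17.2% and 16.03% of glutamatergic UMIs after saline against 10.5% and 9.98% after risperidone, and its part in the Slc6a11 ratio was not tested. In L6b nuclei Slc6a11 was called higher, at 0.98 on 8 and 33 UMIs (-0.16 to 2.31). Cyp11a1, the side-chain cleavage enzyme at the start of steroid synthesis, had -0.73 (-0.82 to -0.63) on a mean of 13.6 CPM and was lower in 5 neuronal classes. It was the only gene of neurosteroid synthesis on the list that was measured in glutamatergic nuclei. The others, at means of 4.57 CPM or less, had log2 ratios there from 0.02 to 1.9, so Cyp11a1 does not stand for them. Gad1, which makes GABA, and Slc32a1, which loads it into vesicles, were both higher in PV-IN, Sst-IN, Lamp5-IN and SPN nuclei. Both belong to the held-out GABAergic list used to check these classes. That list as a whole was higher after risperidone in PV-IN, Sst-IN and Lamp5-IN nuclei. In SPN nuclei it was lower, at 1107 and 1106 CPM after saline against 512 and 491 CPM after risperidone. What this means for the SPN ratios was not tested. In glia Gabra2, Gabra3 and Slc12a5, a neuronal chloride transporter, were lower in at least 2 of the 3 classes, and the share of RNA of other cells in glia was larger after saline. Gabra2 was also lower in PV-IN and Gabra3 in SPN nuclei. Insyn2a was lower in 2 layer types and higher in all 3 glial classes.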

How the data were processed

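The authors aligned reads with Cell Ranger 8.0.1 to an mm10 reference, counted intronic reads, and deposited unnormalized UMI counts per gene and nucleus for each lane. Counts rather than any normalized unit were analysed here. The members and all lists were chosen with earlier results of these data known, and the limits for setting classes after marker levels had been seen. A minimum of 500 genes and a maximum of 5% mitochondrial UMIs were applied per nucleus. Each was assigned by Poisson likelihood of 121 marker genes under profiles of reference nuclei. Nuclei closer to a 50/50 mixture of classes of different families were left out, which stood in for a doublet caller, and 8725 nuclei lay near a limit. Between 160 and 221 barcodes were shared by any 2 lanes. Counts were summed per class and lane and scaled with TMM factors of edgeR 4.0.16 (R 4.3.3), and ratios have exact conditional binomial intervals, shares Clopper-Pearson intervals and counts Poisson intervals, all at 95% confidence. RNA of other cells was estimated as the lowest ratio, over held-out marker lists of other families, of the level in a class to that in its lane. For OPC and SPN nuclei the GABAergic list was counted as their own and left out of this estimate. The named genes were the members, list genes called in glutamatergic nuclei or in at least 3 classes, and the 5 genes most correlated with each member among those of at least 20 CPM in 1 class. Other tools were Python 3.11.15, numpy 2.4.6, scipy 1.17.1, pandas 2.3.3 and matplotlib 3.10.9. The ratio and call steps were tested on simulated data. Alternatives included DESeq2 1.42.0 size factors. Some genes of the lists are not reported here.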

Additional observations from a re-analysis of the deposited data

Results flagged for a closer look

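For Gabra4 both risperidone lanes lay over both saline lanes in some classes and under them in others. These values are set apart here for that reason, although such orders of lanes were common without the minimum of size. In the classes with Gabra4 lanes over, 26.7% (Lamp5-IN) to 41.4% (L2/3 IT) of measured genes had that order. In the classes with Gabra4 lanes under, 26.2% (OPC) to 37.4% (L6 CT) of measured genes had that order. The Gabra4 log2 ratio was 0.27 in SPN, 0.13 in L2/3 IT, 0.10 in NP and 0.0377 in Lamp5-IN nuclei. It was -0.12 in L6 CT, -0.0570 in L5 IT, -0.33 in astrocytes, -0.49 in oligodendrocytes and -0.70 in OPCs. The sign in L5 IT turned under plain CPM (0.0079) and in female nuclei (0.0063), and that in Lamp5-IN in female nuclei (-0.0972) and with stricter classes (-0.0128). That in oligodendrocytes turned with nuclei of at least 2000 UMIs (0.0212) and in male nuclei (0.64). The difference between classes was not tested, because each condition is 1 pool. The SPN nuclei of the risperidone pool were nearly all female, and RNA of other cells would give from 0.23 to 1.30 of the glial Gabra4 UMIs. The SPN ratio was 0.33 in female and -1.37 in male nuclei, and with RNA of other cells taken out the ratio was -0.37 in astrocytes and -0.59 in oligodendrocytes.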

How the results depend on the processing

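No paired analysis was possible because the 2 lanes of a condition are runs of 1 pool and share only a number with the lanes of the other. The number of classes with lower Gabrd was 13 and fell to 8 in male nuclei alone, and lay between 11 and 13 when a lane was left out. For Gabra4 it was 1, and it was 2 with a minimum of 1 CPM, with stricter classes and, as an alternative chosen after seeing the data, with ratios centred on genes of like span, 0 with nuclei of at least 2000 UMIs, 5 in male nuclei, and 1 to 2 without a lane, the 2 without saline lane 1 or risperidone lane 2. For Gabra5 it was 5, and it was 8 in female and 3 in male nuclei, 2 with RNA of other cells taken out, and 4 to 10 without a lane, the 10 without risperidone lane 1. Gabra5 was higher in 0 to 1 classes without a lane, the 1 without saline lane 2 or risperidone lane 2. The glutamatergic log2 ratio of Gabrd was -0.82 with layer types weighted equally and -0.71 centred on genes of like span. That of Gabra4 was 0.14 by plain CPM, 0.0472 with the 1 CPM minimum, 0.17 in female and -0.0218 in male nuclei, 0.0652 centred on span, -0.0003 with equal weights and 0.0741 to 0.10 without a lane. That of Gabra5 was -0.48 by plain CPM, -0.57 with the 1 CPM minimum, -0.52 in female nuclei, -0.56 with stricter classes, -0.50 with lenient classes (also chosen after seeing the data), -0.56 with RNA of other cells taken out, -0.48 centred on span, -0.44 with equal weights and -0.55 to -0.53 without a lane, so its call ends under plain CPM, centring and equal weights. In single classes 237 of 238 alternative Gabrd ratios kept their sign, 226 of 239 for Gabra5 and 209 of 239 for Gabra4. With RNA of other cells taken out oligodendrocytes gave 0.38 for Gabrd and 0.97 for Gabra5, on the few UMIs left. In male nuclei Gabra4 gave -0.89 in L6b, on 8 and 8 UMIs after saline and 9 and 3 after risperidone. It gave -1.37 in male SPN nuclei, where the risperidone lanes held 2 and 10 UMIs. Gabra5 gave 0.44 in male oligodendrocytes, on 3 and 5 UMIs after saline and 3 and 4 after risperidone. Without thinning the difference in the share of nuclei with a UMI, risperidone minus saline, turned to 0.90 percentage points for Gabrd in glutamatergic and 2.88 in PV-IN nuclei, and to 1.10, 0.62 and 1.32 for Gabra5 in glutamatergic, L2/3 IT and PV-IN nuclei. Other classes turned as well, among them L4/5 IT and L5 ET for Gabrd, most layer types and SPN for Gabra5, and L4/5 IT, L6 IT, L6 CT and Sst-IN for Gabra4. Thinning sets depth equal; the cause of the other changes was not tested. With 1 pool per condition, differences between animals are not measured.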
